A study of Mus musculus with 4 samples.

Results

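Star strands are the passenger strands of microRNA (miRNA) hairpins, marked in the older naming by an asterisk after the name. A mouse miRNA array carried 700 miRNA probes, and the 116 whose name ends with an asterisk are described here. Of these, 104 also had a probe for the strand of the same name without the asterisk, the guide. The remaining 12 had none of exactly that name, and 9 of these belong to numbered hairpins such as miR-24-2*. The samples were total RNA of HC11, an established mouse cell line from mammary epithelium. To differentiate them, epidermal growth factor was withdrawn and serum lowered to 2% for 48 h. Dexamethasone at 100 nM and prolactin of sheep at 1 µg/mL, which bring on milk gene expression, were then added for 72 h. Proliferating cells grew in 10% serum with epidermal growth factor and were collected after 48 h. Insulin and gentamicin were in the growth medium of the line. Each stage had 2 samples. Each of 2 arrays carried a differentiated and a proliferating sample in opposite dyes, and the dyes were swapped on the other array. Nothing in the labels tells whether replicates came from separate cultures, and p-values thus cover only the spread among these 4 samples, which may be technical.

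A miRNA gene is transcribed as a hairpin that the enzymes Drosha and Dicer cut to a short duplex. One strand, the guide, is loaded into an Argonaute protein and pairs through its seed with messenger RNAs, while the other strand is mostly released and degraded. The strand whose 5′ end is paired less firmly, and which starts with U or A, is favoured for loading. Both strands of a hairpin come from the same precursor. Some strands first named as stars are loaded in quantity, and current naming therefore uses 5p and 3p for the arms. The comparison asked how many star strands stood above the background, how bright they were beside their guides, and whether star and guide changed alike between the stages.

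The sequences below are those of the pairs on which the results turn, as the array tables give them, 5′ to 3′, with the seed (bases 2 to 8) in capitals. The miR-140 pair is shown because its star was by far the brightest of all stars.
miR-140*: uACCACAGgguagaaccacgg
miR-140: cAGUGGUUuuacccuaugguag
The miR-200a and miR-200b pairs are shown because their guides rose with differentiation. Their stars share the seed AUCUUAC, and the guides have different seeds.
miR-200a*: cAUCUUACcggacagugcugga
miR-200a: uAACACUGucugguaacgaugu
miR-200b*: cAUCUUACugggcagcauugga
miR-200b: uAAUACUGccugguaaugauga
The miR-27b, miR-674 and miR-106b stars had the lowest stage ratios among the tested stars, and the guides of the last 2 fell.
miR-27b*: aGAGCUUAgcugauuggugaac
miR-27b: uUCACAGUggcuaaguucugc
miR-674*: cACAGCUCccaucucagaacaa
miR-674: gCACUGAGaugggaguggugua
miR-106b*: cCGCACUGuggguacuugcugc
miR-106b: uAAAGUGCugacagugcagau
The miR-322 pair and 2 stars of the miR-467 family are shown because the star exceeded the guide in several samples.
miR-322*: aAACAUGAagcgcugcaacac
miR-322: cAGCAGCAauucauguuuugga
miR-467a*: aUAUACAUacacacaccuacac
miR-467b*: aUAUACAUacacacaccaacac

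In RefSeq's annotation of GRCm38.p6, 102 of the 116 star sequences matched a mature miRNA exactly. Of these, 63 were 3p strands and 39 were 5p strands, so a star can lie on either arm. The match of miR-140* was miR-140-3p, at chr8:107551288-107551308 within the span of Wwp2, a ubiquitin ligase gene. The miR-200a* and miR-200b* strands were the 5p arms at chr4:156054949-156054970 and chr4:156055721-156055742, in the span of no listed gene. The match of miR-106b* lay at chr5:138165746-138165767 within the span of Mcm7, a gene of DNA replication, and that of miR-27b* at chr13:63300718-63300739 within Aopep. The table gives gene spans only, so exon and intron are not stated.

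The star sequences differed from their guides in their first bases. Among the 104 pairs, 22 stars (21.2%) and 56 guides (53.8%) started with U, whereas 36 stars and 11 guides started with C. The star had fewer A or U among its first 4 bases in 48 pairs, as many in 28 and more in 28. Median GC content was 50.0% in stars and 43.5% in guides. Of the 29 stars detected in some sample 20.7% started with U, and of the 87 others 19.5%. Of the 9 groups of stars that share a seed, those with 2 detected members were miR-200a* with miR-200b*, miR-30a* with miR-30e*, let-7a* with let-7b* (and let-7f*, which was undetected), and miR-467a* with miR-467b* (and the undetected miR-467e*). The miR-467a* and miR-467b* targets are 1 edit apart, as are those of miR-30a* and miR-30e*, so these probes can share signal. In all, 9 of the 29 detected stars lie within 3 edits of another probe's target. Guide probes can share signal too. The let-7b target is 1 edit from let-7c and miR-27b 1 edit from miR-27a. Those of miR-200a and miR-200b are 2 edits from miR-141 and miR-200c. The guides miR-30a and miR-30e are 1 edit apart, so their pairs are not separate in signal. Of the other guides printed above, miR-106b, miR-322, miR-674 and miR-140 are 5, 6, 7 and 8 edits from the nearest target. A guide's signal may thus include related miRNAs of other hairpins.

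Most star strands did not rise above the empty spots of the array. A probe was counted as detected where at least 3 of its 5 spots exceeded, over the local background, the mean of the empty spots by 3 of their SDs. On this rule 22 stars were detected in differentiated replicate 1 and 16 in differentiated replicate 2, against 24 in proliferating replicate 1 and 12 in proliferating replicate 2. The margin to be exceeded was 7.75, 157, 13.2 and 53.7 intensity units in these 4 samples, and so was higher on array 2, which carried the replicates numbered 2. Both differentiated samples detected 13 stars and both proliferating samples 11, with 8 in common. Thus 29 stars (25%) were detected somewhere, 87 nowhere, and 6 only in the 2 samples of array 1. The other 584 miRNA probes were detected somewhere in 205 cases (35.1%). Detection counts differed more between the 2 samples of a stage than between the stages on either array. In such bulk RNA, fewer cells holding a strand and less of it per cell cannot be told apart.

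The 8 stars found in all 4 samples were miR-140*, miR-31*, let-7d*, miR-24-2*, miR-322*, miR-30a*, miR-27b* and miR-183*. A further 5 were detected in both differentiated samples and not in both proliferating ones, namely let-7b*, miR-200a*, miR-200b*, miR-30e* and miR-9*. The 3 in the opposite position were miR-106b*, miR-467b* and miR-674*. Neither proliferating sample detected miR-30e* or miR-9*, and neither differentiated sample detected miR-106b*. These 16 stars form the tested set. Those 8 that passed through 1 stage alone were required to be visible there, so counts over the 16 describe what passed the filter and not all 116 stars.

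Most detected stars were dim. The median signal of the detected stars was 26.9 and 232 units in differentiated replicates 1 and 2, and 35.9 and 89.2 units in proliferating replicates 1 and 2. The detected guides had medians of 647 and 3551 units in the differentiated replicates, and of 891 and 1198 units in the proliferating ones. Signals differed in scale between samples, which differ in dye and array, and empty spots themselves averaged 1.35, 53.3, -4.24 and 17.4 units over the local background in the order used above. Differences between the stages are therefore given as normalized log2 ratios further on. Probes for different sequences also bind with different strength, so the brightness of a star beside its guide describes the 2 probes and is not a ratio of molecules.

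One star was far brighter than the rest, of which miR-31* was the brightest with at most 662 units in any sample. For miR-140* the signal was 21109 and 28940 units in the differentiated samples, against 18343 and 13211 units in the proliferating samples. Its guide, miR-140, known from cartilage, had 440 and 3733 units in the differentiated samples and 673 and 693 units in the proliferating ones. The star probe was thus 48.0 and 7.75 times as bright as the guide probe in differentiated replicates 1 and 2, and 27.3 and 19.1 times in proliferating replicates 1 and 2. No other miRNA target on the array lies closer to miR-140* than 8 edits.

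The star of miR-322, a miRNA known from work on mammary gland involution, was also visible where its guide was not. It had 60.7 and 255 units in the differentiated samples, against 66.3 and 62.8 units in the proliferating samples. The guide had 29.6 and 636 units in the differentiated samples, and was undetected at 9.56 and 41.4 units in the proliferating ones. The star thus exceeded the guide in 3 samples and was below it in differentiated replicate 2. The miR-9 strands, abundant in neurons, were dim alike, with 14.6 and 217 units for the star and 11.04 and 388 units for the guide in the differentiated samples, and no detection of either in the proliferating ones.

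By the rule used, 7 stars were brighter than their guide in each sample that detected the star, namely miR-140*, miR-467a*, miR-467b*, miR-34c*, miR-712*, miR-485* and miR-299*. Apart from miR-140*, these were dim. The miR-467b* probe had 51.8 and 103.8 units in the differentiated samples (the second undetected), against 41.1 and 62.1 units in the proliferating samples, and its guide was detected in no sample. The guides of miR-467a*, miR-34c*, miR-485* and miR-299* were likewise detected in no sample. The miR-712* probe was detected at 209 units in differentiated replicate 2 and at 59.3 units in proliferating replicate 1, where the guide read 69.2 and 13.1 units. By sample, the star was the brighter probe in 7 of 19 and 2 of 15 pairs with a detected star in differentiated replicates 1 and 2, and in 8 of 21 and 3 of 11 pairs in proliferating replicates 1 and 2.

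In the opposite direction, the guide exceeded the star in all 4 samples in 11 of the 14 pairs with both strands tested. With undetected stars set to the detection margin, the guide probe of these pairs was brighter by a median of at least 114 and 35.3 times in differentiated replicates 1 and 2, and of at least 54.0 and 18.05 times in proliferating replicates 1 and 2. Among the narrow gaps was that of miR-674, whose guide was 3.95 times as bright as the star in differentiated replicate 1 and at least 1.75 times in differentiated replicate 2, where the star was undetected, against 2.75 and 2.95 times in the proliferating samples. Among the wide gaps was that of let-7b, a member of the let-7 family of differentiation miRNAs, at 1739 and 237 times in the differentiated samples, against 622 times in proliferating replicate 1 and at least 325 times in proliferating replicate 2, where the star was undetected. The true gaps for the dimmest stars are uncertain on array 2, where empty spots were themselves above the local background.

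A bright guide did not ensure a visible star. The star was detected somewhere in 17 of 39 pairs (43.6%) whose guide was detected in all 4 samples, in 3 of 18 (16.7%) whose guide was detected in some, and in 5 of 47 (10.6%) whose guide was detected in none. The brightest guide without any detected star was miR-21, an miRNA abundant in many cultured cells. It had 26452 and 41162 units in the differentiated samples, against 2442 and 3426 units in the proliferating samples. For miR-21* the signals were 5.07 and 44.4 units in the differentiated samples, and 8.60 and 15.6 units in the proliferating ones. Against the detection margin, the miR-21 guide was at least 3412 and 263 times as bright as its star in the differentiated samples, and at least 185 and 63.8 times in the proliferating samples. Next in brightness among guides with no detected star were let-7f, miR-29a, miR-16 and let-7i. The star of miR-148a, an abundant milk miRNA, was undetected as well, with the guide at 6933 and 20197 units in the differentiated samples and at 624 and 657 units in the proliferating samples.

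Hairpins whose arms are named 5p and 3p offer another view of paired strands. Among 62 star and guide pairs with at least 1 strand detected, 20 (32.3%) had both detected in some sample. Among the 68 hairpins named by arm, 20 had at least 1 arm detected and 6 of these (30%) had both. The difference between these shares was not tested.

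No star strand passed the test between the stages. The within-array log2 ratio of differentiated over proliferating cells was tested with limma across all 172 probes that both samples of a stage detected, two-sided, with a threshold of 0.05 on the Benjamini-Hochberg adjusted p. Among all tested probes 16.9% were called higher and 13.4% lower, and among the 16 stars 0 were called in either direction. An unadjusted limma p under 0.05 was reached by 3 of the 16 stars and by 77 of all 172 probes. The median log2 ratio was -0.08 in the 16 stars, 0.30 in the 14 guides tested beside them and 0.11 in all 172 probes. The first 2 medians were the same with the 3 stars and 2 guides that were undetected in a whole stage at their bounds. The stars' ratios ran from -0.72 to 0.79, whereas those of these guides ran from -1.76 to 3.65. The stars were also the dimmer probes, with a median signal of 101 units over the samples, against 505 units in the other tested probes. The offset of 50 units added before taking logs draws the ratios of such dim probes toward 0.

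The result of 0 calls changed with some background corrections and normalizations, and held with others. It was also 0 with median centring, with empty spots as background and over probes detected in all 4 samples. The same held with no filter, with no replicate block (with or without dye as a covariate) and with an eBayes trend or a robust eBayes. Each of these fits still called other probes in both directions. With an offset of 16, 1 star was called higher and 3 lower, where 26.7% and 25% of all tested probes were. Plain subtraction of the background called 3 stars higher and 3 lower, beside 27.9% and 21.5% of all tested probes. A fit on the authors' deposited values gave 3 higher and 6 lower, beside 27.9% and 32.6%. Loess on detected probes (28.5% and 26.2% of all) and quantile normalization (31.4% and 26.2%) each called 1 star higher, and 3 and 5 lower. In each of these fits miR-200b* was the star, or among the stars, called higher, and miR-27b*, miR-674* and miR-106b* were among those called lower. These fits reuse the same arrays, so their calls are not independent. The stars miR-200b*, miR-674* and miR-106b* were tested only because both samples of the stage where they are higher detected them. The filter thus favoured these directions. Centred on the added spike controls instead, whose mean log2 ratio was -1.40, the ratios of all 16 stars were called higher, as were 80.2% of all tested probes (4.65% were lower), so every direction given here is relative to the bulk of miRNA probes.

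Among the stars with positive ratios, miR-200b* had the largest. Its signal was 70.5 and 324 units in the differentiated samples, against 14.9 and 43.9 units in the proliferating samples, the last undetected. After normalization both differentiated samples were above both proliferating samples, and the log2 ratio was 0.79 ± 0.23 (SD, n = 2 arrays; limma adjusted p = 0.0758). With plain subtraction the ratio was 2.00 ± 1.17 and was called. The miR-200 family maintains the epithelial state, and its guides miR-200a and miR-200b rose by 3.65 ± 0.16 and 2.67 ± 0.30 (limma adjusted p = 0.00873 and 0.0103). For miR-200a* the signal was 53.5 and 248 units in the differentiated samples, against 43.0 and 44.2 units in the proliferating samples, the last again undetected. Its normalized stages did not overlap, and its ratio was 0.34 ± 0.03 (adjusted p = 0.226). Both stars were tested only because both differentiated samples detected them. The filter thus favoured this order of the stages, which adds nothing to the ratios. The other 2 stars of the family on the array, miR-200c* and miR-141*, were detected in no sample.

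The stars of miR-9 and miR-30e had neither proliferating sample detected, so their ratios are bounds. With differentiation miR-9* stood at least 1.18-fold higher (limma adjusted p = 0.172), and miR-30e*, from the miR-30 family that is abundant in epithelia, at least 1.10-fold higher (adjusted p = 0.255). The miR-30e guide had a ratio of 1.15 ± 0.58 and the miR-9 guide, itself undetected in the proliferating samples, stood at least 1.39-fold higher, neither called. With plain subtraction both stars were called higher, their size again having only a bound. Beside them, let-7b*, miR-322* and miR-30a* had ratios of 0.17, 0.16 and 0.12 and were not called.

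On the lower side, miR-27b* had 33.9 and 158 units in the differentiated samples, against 110 and 119 units in the proliferating samples. The normalized stages did not overlap, and the log2 ratio was -0.72 ± 0.12 (limma adjusted p = 0.0762). Its guide, miR-27b, of the miR-23b/27b/24 cluster, was at -0.02 ± 0.11 (adjusted p = 0.919). The star of miR-24-2, from the paralogous cluster with miR-23a and miR-27a, had 36.2 and 340 units in the differentiated samples, against 93.5 and 175 units in the proliferating ones, with a ratio of -0.48 ± 0.03 (adjusted p = 0.138).

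For miR-674*, a rodent miRNA strand, the signal was 25.8 and 105.9 units in the differentiated samples, the second undetected, against 123.5 and 66.3 units in the proliferating samples. Its ratio was -0.72 ± 0.23 (limma adjusted p = 0.0885), beside a guide that fell by 0.94 ± 0.15 on the log2 scale (adjusted p = 0.0474). For miR-106b*, whose guide belongs to the miR-17 family of proliferation miRNAs, neither differentiated sample was above the margin (6.17 and 55.5 units), against 36.9 and 72.5 units in the proliferating samples. With differentiation it stood at least 1.30-fold lower (adjusted p = 0.134), and its guide miR-106b fell by 1.76 ± 0.51 on the log2 scale (adjusted p = 0.0297). The ratios of miR-183*, let-7d* and miR-140* were -0.40, -0.33 and -0.33 (the normalized stages overlapped for miR-140*), and those of miR-467b* and miR-31* were -0.09 and -0.06, none called. The 2 arrays disagreed in sign for miR-467b* (0.33 and -0.51 on arrays 1 and 2) and miR-31* (-0.20 and 0.07).

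Whether star and guide changed alike was tested on the difference of their log2 ratios within each array, in which a constant shift of an array cancels. The test ran over the 16 hairpins with both strands tested, 14 of them star and guide pairs, and called 18.8% of them in either direction. The star's ratio lay below the guide's in 11 of the 14 pairs, with a median difference of -0.57, and the signs of star and guide were shared in 11. The star's ratio was also smaller in size than the guide's in 10 of the 14 pairs. It lay below the guide's in every pair whose guide ratio was positive. The pairs with the star above, miR-106b, miR-31 and miR-674, had negative guide ratios. A star below its guide thus need not have fallen. A total of 3 pairs was called, and all were star and guide pairs. The prior degrees of freedom estimated on so few hairpins were infinite, which gave every pair the same standard error of 0.32.

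The difference was largest for miR-200a, where the star lay below the guide on both arrays (differences of -3.22 and -3.40). The mean difference was -3.31 ± 0.13 (SD, n = 2 arrays; 95% interval -3.94 to -2.68; limma adjusted p = 2.97e-07). In signal, the miR-200a guide was 60.3 and 35.3 times as bright as its star in the differentiated samples, against 4.85 times in proliferating replicate 1 and at least 3.10 times in proliferating replicate 2, where the star was undetected. The call was kept in each of the 18 alternatives that tested it, with adjusted p from 2.32e-12 to 0.0163 and differences from -3.63 to -3.20. With plain subtraction the star was at 0.76 and the guide at 4.09. Whether background left after subtraction drew the dim star's ratio toward 0 was not tested.

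The miR-200b pair, from the same cluster, had a difference of -1.88 ± 0.07 (95% interval -2.51 to -1.25; limma adjusted p = 0.000198). This call did not hold with plain subtraction, which gave -0.80 (adjusted p = 0.224), with the star at 2.00 and the guide at 2.80. It was also lost in the fits with no replicate block that left out proliferating replicate 1 (adjusted p = 0.0573) or proliferating replicate 2 (adjusted p = 0.0896). In signal the guide was 114 and 46.8 times as bright as the star in the differentiated samples, against 57.2 times in proliferating replicate 1 and at least 18.05 times in proliferating replicate 2, where the star was undetected. The miR-106b pair was called in the other direction, with a fitted difference of 1.11 ± 0.89 (adjusted p = 0.0179). Its star was detected in neither differentiated sample and has only a bound, so the size of this difference is not measured. With plain subtraction the fitted difference was -0.13, and it was not called with the authors' deposited value table (0.64), with no replicate block, or with the prior degrees of freedom of all probes (adjusted p = 0.197).

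The other 11 pairs were not called in the main fit. Across the 14 pairs, 4 (miR-106b, miR-9, miR-30e and miR-322) have a strand undetected in a whole stage, and their differences are fitted values. Differences of miR-30e*, miR-322*, miR-30a* and miR-27b* from their guides were -0.82, -0.79, -0.78 and -0.69 (limma adjusted p of 0.0667 for the first 3 and 0.094 for miR-27b*). Their 95% intervals lay below 0, from -1.45 at the lowest to -0.06 at the highest. These intervals rest on the standard error shared by all pairs and do not measure each pair's own spread. The SDs over the 2 arrays were 0.42, 0.62, 0.70 and 0.23 in the same order. With plain subtraction the miR-27b and miR-322 pairs were called. An offset of 16, loess on detected probes and the authors' values also called both. Loess on detected probes called let-7d, miR-183 and miR-30a too, and the authors' values let-7d and miR-183. Quantile normalization called miR-27b, let-7d, let-7b and miR-30a, and an eBayes trend miR-322, miR-30a and miR-30e. In all of these the star lay below the guide. For miR-27b the difference with plain subtraction was -1.36, with the star at -1.31 and the guide at 0.06. For miR-322 its size is not measured, since the guide was undetected in both proliferating samples and has only a bound (at least 1.87-fold higher). For let-7d*, miR-183*, miR-140*, let-7b* and miR-9* the differences were -0.59, -0.55, -0.50, -0.17 and -0.23, and for miR-31* and miR-674* they were 0.36 and 0.23. The 95% interval for miR-674 was -0.40 to 0.86 and that for miR-9 was -0.86 to 0.40, so the intervals include differences in either direction. The miR-140 difference was 0.14 on array 1 and -1.13 on array 2, and its sign rested on array 2. The star miR-24-2*, paired with miR-24 by dropping the hairpin number, differed from it by 0.25 (adjusted p = 0.305 over 17 hairpins), a pairing chosen after the probe names were seen.

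By family of the guide, detected stars were spread thinly. The miR-30 family had 4 of its 5 star probes detected somewhere and 2 tested, with a median log2 ratio of 0.22 (0.12 with miR-30e* at its bound). The let-7 family had 3 of 7 detected and 2 tested (median -0.08). In the miR-200 family 2 of 4 were detected and tested (median 0.56), and in the miR-23/24/27 clusters 2 of 4 (median -0.60). The miR-17-92 and paralog clusters had 2 of 8 detected, miR-17* and miR-106b*, and only the second was tested. The miR-17* probe had 8.50 and 70.8 units in the differentiated samples, the second undetected, against 36.2 and 42.5 units in the proliferating samples, the second undetected. The rodent group of miR-297, miR-466, miR-467 and miR-669 had 2 of 4 detected and miR-467b* tested (-0.09), and the miR-34 group had its 1 star, miR-34c*, detected in both samples of array 1. No star of the miR-15/16 (3 probes), miR-29 (3), miR-181 (2), miR-26 (1) or miR-148 (1) groups, nor of the group of miR-99b and its relatives (2), was detected in any sample. None of the tested members was called, as above.

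The 13 stars detected somewhere but not tested were seen in 1 or 2 samples each. The 8 brightest of them were miR-712*, miR-28*, let-7a*, miR-34c*, miR-30c-2*, miR-30b*, miR-1982* and miR-483*, with mean signals over the 4 samples from 74.4 down to 43.2 units. The let-7a* probe was detected in differentiated replicate 2 alone, at 159 units, beside a guide at 44487 units. The miR-28* probe was detected in the 2 samples of array 2, at 163 units in the differentiated and 57.0 units in the proliferating one. The miR-30b* and miR-30c-2* probes were detected in the 2 samples of array 1, at 17.2 and 9.27 units in the differentiated and 17.3 and 28.8 units in the proliferating one. The guide of miR-30b* had 5983 and 16481 units in the differentiated samples, against 928 and 1061 units in the proliferating ones. The remaining 5 were miR-17*, miR-467a*, miR-218-1*, miR-485* and miR-299*, with at most 70.8 units in any sample.

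Each array had 3968 spots, 180 of them empty, and the samples detected between 138 and 203 of the 700 miRNA probes. Spots of the same probe varied together in the samples of the same number (r of 0.812 and 0.675 across 590 spots) and less in samples of different number (0.124 to 0.209). Of the 6 epithelial marker miRNAs 5 were detected in some sample and 4 in all 4. Their signals summed to 18364 and 44310 units in the differentiated samples and 5776 and 5114 units in the proliferating ones. Such sums are not normalized, and the samples differ in scale. Neither endothelial marker was detected. Of the fibroblast and mesenchyme list 3 of 5 were detected in some sample and 1 in all 4. Of the blood list 1 of 6 and of the muscle list 1 of 4 were detected in some sample, and 0 in all 4. Among all probes other than stars 35.1% were detected in some sample. The fibroblast and mesenchyme list, which holds miR-140, summed to 544 and 4413 units in the differentiated samples and 697 and 751 units in the proliferating ones. Its part in the miR-140* result was not tested.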

How the data were processed

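The deposited scanner tables hold, per the file headers, a mean intensity for every spot in 1 dye channel and a background value, not normalized. Per the labels, small RNA was tailed, tagged and stained with Cy3 or Cy5. The authors' deposited value table holds processed intensity per probe and sample, and sources used here name neither its scale and centring nor the image software. Its column medians were 15.1 and 13.9 for differentiated replicates 1 and 2, and 13.9 and 13.6 for proliferating replicates 1 and 2. Over tested probes, its log2 values correlated with the same sample's normalized values (r from 0.985 to 0.997).

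The local background was the 20th percentile of spots within 7 rows and columns. It was corrected with normexp (offset 50) in limma 3.58.1 (R 4.3.3). Loess (span 0.3, controls at weight 0) normalized the ratios, and each probe's 5 spots were averaged. Tests used lmFit and eBayes with the array as block (prior degrees of freedom 2.08, residual 1). Precision is limited by the 2 arrays. With 2 samples a stage, 0.333 is the smallest p an exact permutation test that ignores the arrays can give. An exact test that keeps the pairing within the 2 arrays cannot reach even that. SDs over the arrays include dye effects. A bound set the bright stage's mean against, per dim sample, the higher of the lowest detected signal and the probe's own, after loess and Aquantile. Star and guide differences were adjusted over all hairpins with both strands tested. The text names every tested star with its guide, the 8 brightest untested detected stars, and stars brighter than their guide wherever detected. Undetected stars beside bright guides and the other named stars were chosen after their values were seen. Same-numbered samples share an array under the dye-swap design, and their deviations from the stage means had a correlation of 0.343, equal for both numbers by construction. The members and lists were chosen with earlier results of these data known. Alternatives covered detection, background, normalization, filters, block, eBayes options and left-out samples. The fits were also run on simulated arrays, with noise drawn separately for each sample. Real spots varied together in the samples of an array, so that run does not vouch for the calls on dim stars. Because labels give epidermal growth factor in conflicting units, its concentration is not used.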

Additional observations from a re-analysis of the deposited data

How the results depend on the processing

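Detection depended on the margin. At 2 SDs of the empty spots, 40 stars were detected in proliferating replicate 1 and 44 in 1 or more samples. At 5 SDs there were 8 in differentiated replicate 2 and 6 in proliferating replicate 2, and 8 in both differentiated and 6 in both proliferating samples. Asking for all 5 spots left 10 in differentiated replicate 2 and 8 in both differentiated samples. Without a local background 8 and 7 were detected in differentiated and proliferating replicate 2, the same numbers in both samples of each stage, and 1 star was brighter than its guide in each of these replicates.

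Counts of stars called between the stages were 3 higher and 3 lower with plain subtraction, 1 and 3 with an offset of 16 and also with loess fitted to detected probes, 1 and 5 after quantile normalization, 16 and 0 with spike centring, and 3 and 6 with the authors' deposited values. Over all 172 tested probes the same fits called 48 and 37, 46 and 43, 49 and 45, 54 and 45, 138 and 8, and 48 and 56, so counts over all probes moved too. The stars' median ratio was -0.16 with plain subtraction, 0.37 with median centring, -0.14 with loess on detected probes, -0.0064 with quantile normalization, 1.32 with spike centring and -0.43 with the authors' values. It was -0.33 over probes found in every sample, and unfiltered probes gave -0.0100. The median of all tested guides was 0.79 with median centring, 1.57 with spike centring, 0.017 with the authors' values, -0.0070 over probes found in every sample and 0.00091 over unfiltered probes. The cause of these shifts was not tested, except that the last 2 settings test fewer and more probes by construction.

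Pairs called with the star below the guide numbered 4 with an offset of 16, 7 with loess fitted to detected probes, 6 after quantile normalization, 6 with the authors' values, 8 with no filter, 5 with an eBayes trend and 0 over probes detected in all 4 samples, where neither miR-200 star remains. Pairs with the star above numbered 5 with no filter. They numbered 0 with plain subtraction, median centring, the authors' values, probes detected in all 4 samples, no replicate block (with or without dye as a covariate) and an eBayes trend. They also numbered 0 in the 2 alternatives chosen after seeing the data, which paired stars of numbered hairpins too or took the prior degrees of freedom of all probes. With no filter all 104 star and guide pairs were tested, undetected strands included, against 14 in the main fit. The 8 and 5 pairs called there are therefore smaller shares than the main fit's calls.

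Several stage ratios changed sign, none of them called in the main fit. Those that changed sign with spike centring were called higher in that fit. With median centring let-7d* was at 0.040, miR-140* at 0.55, miR-31* at 0.31 and miR-467b* at 0.15. Quantile normalization put miR-140* at 0.036, and the authors' values put miR-322* at -0.10. Spike centring put let-7d* at 1.07, miR-106b* at 0.74, miR-140* at 1.07, miR-183* at 1.01, miR-24-2* at 0.92, miR-27b* at 0.68, miR-31* at 1.34, miR-467b* at 1.31 and miR-674* at 0.68. Differences of star and guide that changed sign with plain subtraction were those of let-7b (0.083), miR-106b (-0.13) and miR-674 (-0.13). The miR-31 difference was -0.097 with median centring, -0.0081 with loess on detected probes, -0.30 with quantile normalization and -0.11 with the authors' values, which also put let-7b at 0.094. The cause was not tested.

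Leaving out each sample or array in turn gave 0 to 1 stars called lower and 0 called higher, a median star ratio from -0.093 to -0.034, 0 to 1 pairs above and 1 to 7 pairs below. The single star called lower was miR-674* without proliferating replicate 2. With 1 array left out, which allows no test, the ratio of miR-31* was -0.20 or 0.069 and that of miR-467b* -0.51 or 0.33, and the differences were -0.59 or 0.26 for let-7b, -1.13 or 0.14 for miR-140 and -0.52 or 0.047 for miR-9. With 1 sample left out and no replicate block, the lone sample being assumed to vary like the others, miR-31* reached 0.0042 and 0.14, miR-467b* 0.35 and miR-30a* -0.040 and -0.048, and the differences of let-7b, miR-140 and miR-9 reached 0.14, 0.34 and 0.097. With no replicate block the miR-200a and miR-200b pairs were still called, the miR-106b pair was not (limma adjusted p = 0.134), and 0 stars were called. The limits are the 2 arrays, the unequal background between them and the dimness of the stars.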
